A study of Mus musculus with 6 samples.

Results

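Connexins are the membrane proteins that assemble into gap junction channels, and 8 connexin genes were read in embryonic mouse cochlea with and without Igf1, the gene of insulin-like growth factor 1. All probe sets that the platform annotation assigns to a single one of these genes were taken, which gave 14 probe sets of Gja1, Gja4, Gja5, Gjb1, Gjb2, Gjb5, Gjb6 and Gjc1 among 22626 probe sets tested, and 8 genes among 12393. Of the 14 probe sets 6 belong to Gja1 and 2 to Gjb1, so the probe sets are not independent readings of 14 genes. Each of the 6 samples was RNA from 4 pooled cochleae of C57BL/6J-background embryos at embryonic day 18.5, bred from heterozygous parents, with the otic capsule kept and the vestibular organs left out. The Igf1 null group (Igf-1-/-) and the wild type group (Igf-1+/+) had 3 pools each, 1 Affymetrix array per pool. The labels do not describe the null allele or the sexes in the pools, no treatment is named, and a label field of the null samples carries the wild type sign although their titles and descriptions say null.

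Connexin subunits form a hemichannel, and hemichannels of neighbouring cells dock into a channel that passes ions and small metabolites. In the mature cochlea Gjb2 (Cx26) and Gjb6 (Cx30) couple the supporting cells of the organ of Corti and the fibrocytes of the lateral wall, a network held to return potassium towards the stria vascularis, and mutations of human GJB2 are a common cause of inherited deafness. Gja1 (Cx43) is widespread and abundant in bone and connective tissue cells, Gja4 (Cx37) and Gja5 (Cx40) are connexins of arterial endothelium, Gjc1 (Cx45) is found in vascular muscle, Gjb1 (Cx32) in myelinating Schwann cells and liver, and Gjb5 in skin and other stratified epithelia. Gjb2 and Gjb6 lie next to each other on mouse chromosome 14, with 0 protein-coding genes between them in the RefSeq table of assembly GRCm38.p6.

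The start regions of 4 of the 5 connexins with detectable signal are shown because the later results set these genes' levels and array profiles side by side. Each line gives the 150 bases before the annotated transcription start, 5′ to 3′ on the gene's strand, from RefSeq on GRCm38.p6, and 7 of the 8 genes had an entry. Capitals mark matches on either strand to 4 motifs searched. These were GGGCGG (the GC box), TTAAAA (a run resembling the TATA box), TGANTCA (the motif of AP-1 factors) and TGTTTAC (the motif of FoxO factors). No matched motifs overlap each other in these windows.
Gjb2, chr14:57104703-57104852, minus strand: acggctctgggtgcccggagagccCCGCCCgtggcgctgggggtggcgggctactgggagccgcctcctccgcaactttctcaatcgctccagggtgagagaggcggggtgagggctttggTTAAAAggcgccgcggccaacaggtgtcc
Gjb6, chr14:57133612-57133761, minus strand: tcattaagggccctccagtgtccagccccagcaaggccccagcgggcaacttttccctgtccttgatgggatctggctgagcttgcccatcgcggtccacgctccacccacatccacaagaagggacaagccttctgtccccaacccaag
Gja1, chr10:56377150-56377299, plus strand: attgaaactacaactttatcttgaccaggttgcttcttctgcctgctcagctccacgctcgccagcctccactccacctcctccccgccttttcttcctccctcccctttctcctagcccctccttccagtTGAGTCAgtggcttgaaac
Gja4, chr4:127314040-127314189, minus strand: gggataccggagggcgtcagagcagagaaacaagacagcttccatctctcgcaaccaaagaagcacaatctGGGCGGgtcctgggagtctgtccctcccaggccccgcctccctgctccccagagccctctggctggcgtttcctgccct

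The Gjb2 window held a GC box, starting 126 bases before the start, and the TATA-like run, starting 29 bases before it. Its base composition was 69.3% G or C with 13 CpG pairs, against a median of 54.0% over all 32851 windows. The neighbouring Gjb6 window, at 60.7% and 4 CpG pairs, held 0 of the 4 motifs. Gja1 had the AP-1 motif, starting 19 bases before the start, in a window of 54.7% G or C. In Gja4 (63.3%) a GC box started 79 bases before the start. Among all windows of this length 28.62% held the GC box, 9.82% the TATA-like run, 4.24% the AP-1 motif and 1.80% the FoxO motif. These matches describe letters, not bound sites.

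Levels below are log2 signals after quantile normalization, and differences are Igf1 null minus wild type with the standard error of the limma fit. The deposited array medians ran from 5.61 to 6.36 in null and from 6.09 to 6.30 in wild type arrays, so the arrays were brought to a common scale. At the 3 Igf1 probe sets the null arrays were below the wild type arrays throughout, with differences of -0.99, -0.55 and -0.46. Null arrays kept 0.502, 0.684 and 0.729 of the wild type signal there, at means of 7.06, 6.93 and 10.59 in null and 8.05, 7.47 and 11.05 in wild type, so Igf1 signal was lower but not absent in the arrays labelled null. In the whole fit 0 of 22626 probe sets passed an adjusted p of 0.05 in limma (0%), against 1130 at an unadjusted p below 0.05 (4.99%). The 3′ minus 5′ signal of beta-actin, a sign of RNA integrity, was 0.94 ± 0.12 in null and 0.76 ± 0.04 in wild type arrays (SD, n = 3 each), and that of Gapdh 0.35 ± 0.17 and 0.25 ± 0.06. The beta-actin values of the 2 genotypes did not overlap, at 0.86 to 1.08 in null and 0.71 to 0.80 in wild type arrays, while those of Gapdh did. The part of RNA integrity in the connexin values was not tested. Background was set at 3.93, the 95th percentile of 68 probe sets of olfactory, vomeronasal and bitter taste receptors over the arrays, and a probe set counted as above it when either group mean was higher. The array number limits the precision of every value. The labels call the pools independent, and fewer cells of a type and less RNA per cell cannot be told apart in such bulk RNA.

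Cochlear markers were present. All but 1 of 12 markers of cochlear epithelium and supporting cells were above background, among them the tectorial membrane genes Tecta and Tectb, and the exception was Prox1. Of 6 spiral ligament and periotic mesenchyme markers 5 were above it, and otospiralin (Otos) was not. In the list for the stria vascularis 6 of 9 were above background, whereas Kcne1, Bsnd and Met were not. Kcnq1, counted among the 6, passed only by its wild type mean of 3.94, with 3.28 in null.

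Of the 8 connexins, 5 gave signal above background, namely Gja1, Gjb2, Gjc1, Gjb6 and Gja4, at 10 probe sets. Mean signal lay at the 87.4 percentile of all probe sets for Gjb2, at 85.3 for Gjc1, at 56.5 for Gjb6 and at 50.1 for Gja4. The 6 Gja1 probe sets spread from the 40.2 to the 96.7 percentile, 4.93 log2 units apart, although they read the same gene in the same RNA. Levels of different probe sets are therefore not comparable, and no order of expression among the connexins was read from these levels. The 4 probe sets of Gja5, Gjb1 and Gjb5 were not above background in either genotype.

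**Figure D1:**
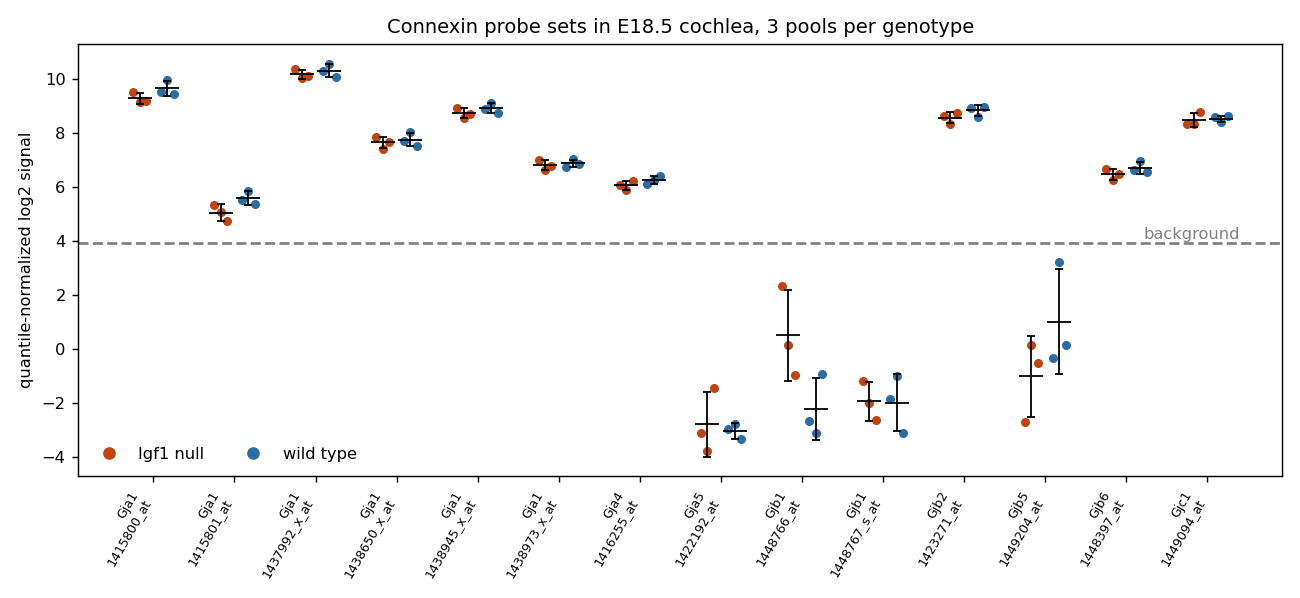
Quantile-normalized log2 signal (y axis) of the 14 connexin probe sets (x axis), with Igf1 null pools left in orange and wild type pools right in blue. Points are single arrays, bars the mean and SD of 3 arrays, and the dashed line the background of 3.93. The 10 probe sets of Gja1, Gja4, Gjb2, Gjb6 and Gjc1 lie above the line with close groups, and those of Gja5, Gjb1 and Gjb5 lie below it with wide scatter.

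No connexin probe set passed the threshold between genotypes. In limma 0 of 14 had an adjusted p below 0.05, with adjusted p from 0.977 to 0.998, and 1 had an unadjusted p below 0.05, a Gjb1 probe set below background. At the 10 probe sets above background the null mean was lower than the wild type mean in 10, with a median difference of -0.19, where 49.3% of all 16561 probe sets above background had a lower null mean and the median was 0.0034. Counted by gene at the brightest probe set, 5 of 5 connexins above background had the lower mean in null cochleae, against 48.2% of 9545 such genes. This count was chosen after the values were seen, and it was 4 of 5, with the sign of Gjc1 turned, when null replicate 1, null replicate 2 or the 2 arrays of title number 14 were left out. Title number is a number in the sample titles, of meaning not given, which is 14 for replicate 1 and 16 for replicates 2 and 3 of each genotype. The 2 genotypes were fully separate at 1 of the 14 probe sets, against 10.8% of all probe sets and 5.3% for those lower in null.

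Gjb2, the Cx26 gene of the epithelial and fibrocyte networks, was read by probe set 1423271_at. Its signals were 8.61, 8.34 and 8.74 in null replicates 1 to 3, against 8.92, 8.60 and 8.96 in wild type replicates 1 to 3. The lowest wild type array lay within the null range, while the other wild type arrays lay above all null arrays. At each replicate number the null array was the lower, though whether the numbers pair the pools was not settled. With replicate number as a block in the fit, the adjusted p of Gjb2 was 0.842 in limma. Gjb2 averaged 8.56 ± 0.20 in null and 8.83 ± 0.20 in wild type cochleae (SD, n = 3 each), a difference of -0.27 ± 0.17 (SE), or 0.830 of the wild type level, with an adjusted p of 0.980 in limma. The 95% interval of this ratio ran from 0.617 to 1.12. Within title number 14 Gjb2 differed by -0.32, and within title number 16 by -0.25. Leaving out null replicate 2 gave a Gjb2 difference of -0.16.

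Gjb6 encodes Cx30, which forms mixed channels with the Gjb2 product in cochlear supporting cells. Probe set 1448397_at gave 6.65, 6.27 and 6.46 in null replicates 1 to 3, against 6.63, 6.96 and 6.53 in wild type replicates 1 to 3. Null replicate 1 stood above wild type replicates 1 and 3, so the groups overlapped. The means of Gjb6 were 6.46 ± 0.19 in null and 6.71 ± 0.22 in wild type (SD, n = 3 each), a difference of -0.25 ± 0.17 (SE) with a ratio of 0.842 (95% interval 0.621 to 1.14) and an adjusted p of 0.980 in limma. By title number the Gjb6 difference was 0.022 in number 14 and -0.38 in number 16, where both null arrays lay below both wild type arrays. The Gjb6 difference was -0.12 when wild type replicate 2 was left out and -0.15 when null replicate 2 was.

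Markers of the tissues that these networks join moved in differing directions. Of the 12 supporting cell markers, 10 had a higher and 2 a lower mean in null, with a median difference of 0.24 and 0 past the threshold, and their summed log2 signal ran from 11.93 to 12.21 in null and from 11.74 to 12.16 in wild type arrays. Leaving out wild type replicate 2 gave a median of 0.092, and leaving out null replicate 3 gave 0.10. Spiral ligament markers were 4 higher and 2 lower of 6, with a median of 0.14, and summed signals of 11.93 to 12.55 in null and 11.76 to 12.34 in wild type. When wild type replicate 2 was dropped their median turned to -0.020, and with null replicate 3 dropped it was 0.040. Car3 was by far the brightest of them, with means of 11.80 in null and 11.70 in wild type, so their summed signal mostly reads Car3. Car3 fell from 12.22 to 11.25 over null replicates 1 to 3, and the skeletal muscle gene Ckm fell from 11.13 to 8.95. Both were lowest in replicate 2 among wild type arrays. The part of muscle in the Car3 signal was not tested. Stria vascularis markers were 2 higher and 7 lower of 9, with a median of -0.20, 0 past the threshold, and summed signals of 9.35 to 9.44 in null and 9.29 to 9.61 in wild type. Vestibular markers, from tissue meant to be left out, were higher in null at 3 of 3, with a median of 0.70, 0 past the threshold, and summed signals of 10.75 to 11.69 in null and 9.99 to 10.48 in wild type, which did not overlap. Oc90 was by far the brightest vestibular marker, at 10.72 to 11.67 in null and 9.96 to 10.46 in wild type. The summed vestibular signal therefore mostly reads Oc90. Separate groups were seen at 2 of the 3 genes, against 10.6% of all genes at their brightest probe set. The median is that of Hmx2, which alone of these was not above background. The part of the vestibular markers in the Gjb2 and Gjb6 values was not tested. Over all 12393 genes the median difference was 0.0062.

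Gja1, the gene of the broadly expressed Cx43, had the lower mean in null at 6 of 6 probe sets. At the brightest, 1437992_x_at, signals were 10.35, 10.03 and 10.11 in null replicates 1 to 3, against 10.28, 10.56 and 10.07 in wild type replicates 1 to 3. These groups overlapped, and Gja1 differed there by -0.14 ± 0.17 (SE, adjusted p = 0.985 in limma), and by -0.011 without wild type replicate 2. At the second brightest, 1415800_at, signals were 9.52, 9.14 and 9.17 in null, against 9.53, 9.97 and 9.44 in wild type replicates 1 to 3, a difference of -0.37 ± 0.20 (SE, adjusted p = 0.980 in limma). This difference was -0.21 without wild type replicate 2 and -0.55 without the 2 arrays of title number 14. There null replicate 1 was level with wild type replicates 1 and 3, and the other null arrays were below every wild type array.

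The single connexin probe set with separate groups was the dimmest of Gja1, 1415801_at. Its signals were 5.33, 5.07 and 4.72 in null replicates 1 to 3, against 5.49, 5.86 and 5.38 in wild type replicates 1 to 3, and the nearest arrays of the 2 genotypes were 0.049 apart. Gja1 averaged 5.04 ± 0.31 in null and 5.58 ± 0.25 in wild type there (SD, n = 3 each), with a difference of -0.54 ± 0.22 (SE), a ratio of 0.689 (95% interval 0.470 to 1.01) and an adjusted p of 0.980 in limma. An exact permutation test, two-sided, gave p = 0.1, the smallest that 3 against 3 arrays allow. Any probe set with separate groups of 3 gives this value, so the test adds nothing to the separation itself. The remaining Gja1 probe sets, 1438945_x_at, 1438650_x_at and 1438973_x_at, differed by -0.19, -0.11 and -0.07, with overlapping groups, and the last 2 had small positive values when null replicate 2 or wild type replicate 2 was left out. Probe sets ending in x_at hold probes that may also match other transcripts.

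Averaged over its 6 probe sets, Gja1 was 7.94 ± 0.19 in null and 8.17 ± 0.22 in wild type (SD, n = 3 each), a difference of -0.24 ± 0.17 (SE) and a ratio of 0.849, with a 95% interval from 0.627 to 1.15 and an adjusted p of 0.991 over genes in limma. By title number this mean differed by 0.052 in number 14 and by -0.38 in number 16. Bone markers, from a tissue in which Gja1 is abundant, were lower in null at 5 of 5 measured genes, with a median of -0.20 and 0 past the threshold, among them the osteocyte gene Dmp1 (-1.52 ± 0.36 SE, adjusted p = 0.887 in limma) and the osteoblast factor gene Sp7 (-0.28 ± 0.13). Their summed signal ran from 12.93 to 13.40 in null and from 13.13 to 13.48 in wild type arrays. Cartilage markers, of the otic capsule kept in the samples, were lower in null at 7 of 7, with a median of -0.35, 0 past the threshold, and summed signals of 13.92 to 14.34 in null and 14.24 to 14.56 in wild type. Among them the matrilin gene Matn3 differed by -0.93 ± 0.22 (SE, adjusted p = 0.887 in limma). Erythroid markers, of red blood cells and their precursors, were 1 higher and 3 lower of 4, with a median of -1.06, 0 past the threshold, and summed signals of 7.003 to 7.58 in null and 7.94 to 8.38 in wild type, which did not overlap. Alas2 was the brightest erythroid marker, at 6.73 to 7.47 in null and 7.68 to 8.11 in wild type, so the sum mostly reads Alas2. Separate groups were seen at 3 of the 4 erythroid genes, against 10.6% of all genes at their brightest probe set. Of these 4 genes 2 were above background, and Ermap and Hba-a1, the gene higher in null, were not. Slc4a1 passed only by its wild type mean of 5.20, with 3.43 in null. The part of bone, cartilage and erythroid markers in the Gja1 and other connexin values was not tested.

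**Figure D2:**
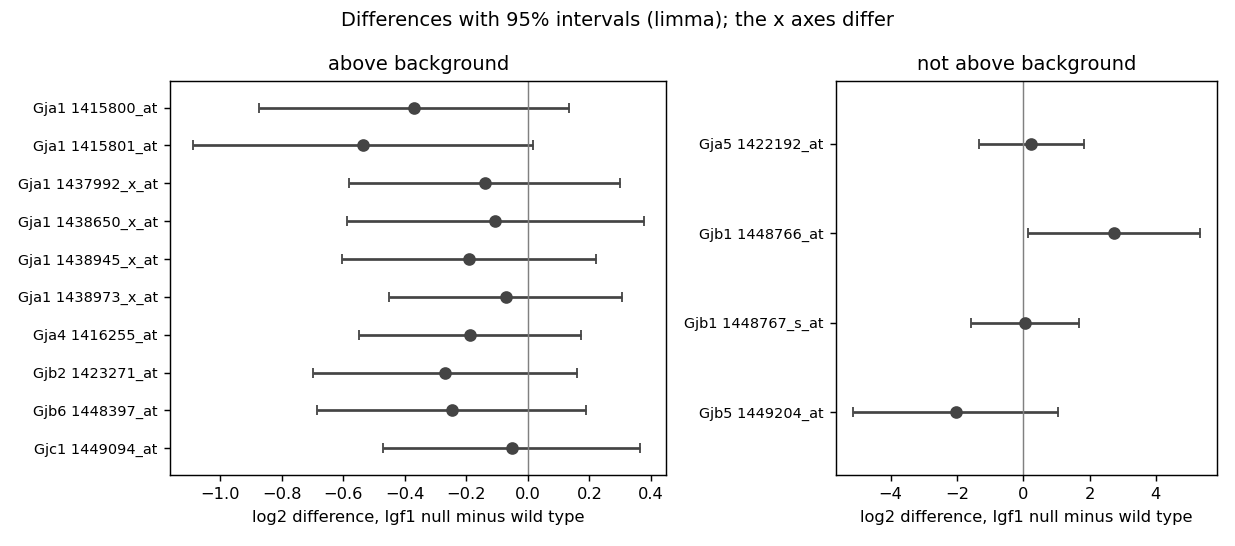
Log2 difference, Igf1 null minus wild type (x axes, on different scales), of each connexin probe set (y axis), with 95% intervals from limma. All 10 probe sets above background (left) lie below 0 with intervals that reach above 0, and those not above background (right) have far wider intervals.

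Among the vascular connexins Gja4 and Gjc1 were above background. Gja4, the endothelial Cx37 gene, gave 6.06, 5.89 and 6.21 in null replicates 1 to 3 and 6.09, 6.24 and 6.39 in wild type replicates 1 to 3 at 1416255_at. Null replicate 3 lay above wild type replicate 1, and the difference was -0.19 ± 0.14 (SE) with a ratio of 0.878, a 95% interval from 0.684 to 1.13 and an adjusted p of 0.981 in limma. The Gja4 difference was -0.10 when null replicate 2 was left out and -0.11 when wild type replicate 3 was, and by title number it was -0.03 in number 14 and -0.27 in number 16. The 6 arterial endothelial markers had a median of -0.09, 2 higher and 4 lower in null, with summed signals of 10.13 to 10.35 in null and 10.10 to 10.28 in wild type. General endothelial markers were 1 higher and 8 lower of 9, with a median of -0.17 and 0 past the threshold, and summed signals of 10.24 to 10.43 in null and 10.37 to 10.53 in wild type. Their part in the Gja4 value was not tested.

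Gjc1, the Cx45 gene, was the connexin above background with the smallest difference at its brightest probe set. At 1449094_at its signals were 8.31, 8.34 and 8.75 in null replicates 1 to 3 and 8.57, 8.39 and 8.60 in wild type replicates 1 to 3. The null arrays spanned all the wild type arrays, and the difference was -0.05 ± 0.17 (SE) with a ratio of 0.964 and a 95% interval from 0.722 to 1.29 (adjusted p = 0.995 in limma). The sign of Gjc1 turned without null replicate 1 (0.025) and without null replicate 2 (0.012). Mural cell markers, of pericytes and vascular muscle, were 1 higher and 7 lower of 8, with a median of -0.08.

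Gja5, Gjb1 and Gjb5 gave values in the range of the chemosensory receptor genes that set the background. Gja5, the arterial Cx40 gene, stood at -3.12, -3.81 and -1.47 in null replicates 1 to 3 and at -2.98, -2.79 and -3.37 in wild type replicates 1 to 3. Gjb1, the Schwann cell Cx32 gene, stood at 2.33, 0.14 and -0.99 in null and at -2.68, -3.12 and -0.94 in wild type replicates 1 to 3 at probe set 1448766_at. The null arrays of that probe set were mostly higher, with an unadjusted p of 0.0418 in limma (adjusted p = 0.977), but all its values were below background and the difference does not show a change in expression. The other Gjb1 probe set, 1448767_s_at, had null signals of -1.19, -2.02 and -2.65 and wild type signals of -1.85, -1.03 and -3.12, with no such pattern. Schwann cell markers were above background at 6 of 6 measured genes in the same RNA, from Foxd3 (means of 4.13 in null and 4.57 in wild type), close to the background, to Pmp22 (10.84 in null and 10.72 in wild type). Of these 2 were higher and 4 lower in null, with a median of -0.16 and 0 past the threshold. Gjb5, the gene of a connexin of stratified epithelia, stood at -2.70, 0.15 and -0.54 in null and -0.34, 3.22 and 0.14 in wild type replicates 1 to 3. In the same RNA 7 of 7 measured epidermal markers were above background. Sfn, counted among these 7, passed only by its null mean of 4.54, with 3.51 in wild type. Standard errors were 0.63 to 1.23 at the 4 probe sets of Gja5, Gjb1 and Gjb5 and 0.14 to 0.22 at the 10 above background.

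The 5 connexins above background did not share a profile over the 6 arrays. Profiles were compared by the root mean square difference of log2 signals after each probe set's own mean was removed, where 0 means the same ups and downs, and as a description without a test. Gjb6 was at 0.047 from Gja1 probe set 1438945_x_at, the nearest of 10429 probe sets of other genes with at least median signal, and at 0.071 from 1437992_x_at, the second nearest. Both genes were highest in wild type replicate 2 and low in null replicate 2, which was the lowest array for Gjb6 and for 5 of the 6 Gja1 probe sets. Wild type replicate 2 also stood apart in tissue markers. Each neuron marker was highest there, with Nefl at 11.39 against 9.64 and 9.63 in wild type replicates 1 and 3. Each skeletal muscle marker was lowest there among wild type arrays, with Ckm at 9.14 against 10.50 and 11.13. The part of tissue content in the shared profile was not tested. For scale, pairs of Gja1 probe sets were 0.042 to 0.29 apart with a median of 0.13, and Gjb6 was a median of 0.084 from the 6 Gja1 probe sets. The next nearest genes to Gjb6 were Sdhc, a respiratory chain subunit gene, at 0.080 and Atp6v1e1, a proton pump subunit gene, at 0.089. Nearest to the brightest Gja1 probe set were Maoa, which encodes monoamine oxidase A, at 0.044, Atp6v1e1 at 0.048 and Ndufaf5 at 0.063, with Gjb6 at rank 4 of 10425.

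Gjb2 did not follow its chromosomal neighbour. It stood 0.26 from Gjb6, rank 5032 of 10429 in likeness to Gjb6, and it was highest in wild type replicate 3 and low in wild type replicate 2, the highest array for Gjb6. The probe sets most like Gjb2 were those of Mettl7a1 (0.042), the histone demethylase gene Kdm4c (0.047) and Hapln1, a link protein gene of cartilage matrix (0.052). Of the other connexins Gja4 was nearest to Gjb2, at 0.14. Leaving out single arrays kept the nearest Gja1 probe set at rank 1 for Gjb6, except that it was at rank 13 without null replicate 2 and at rank 11 without wild type replicate 2, while the rank of Gjb2 ran from 2821 to 7571. With median centring these ranks were 1 and 4881. All profiles share the 6 arrays, and the probe sets of low spread are alike by construction.

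**Figure D3:**
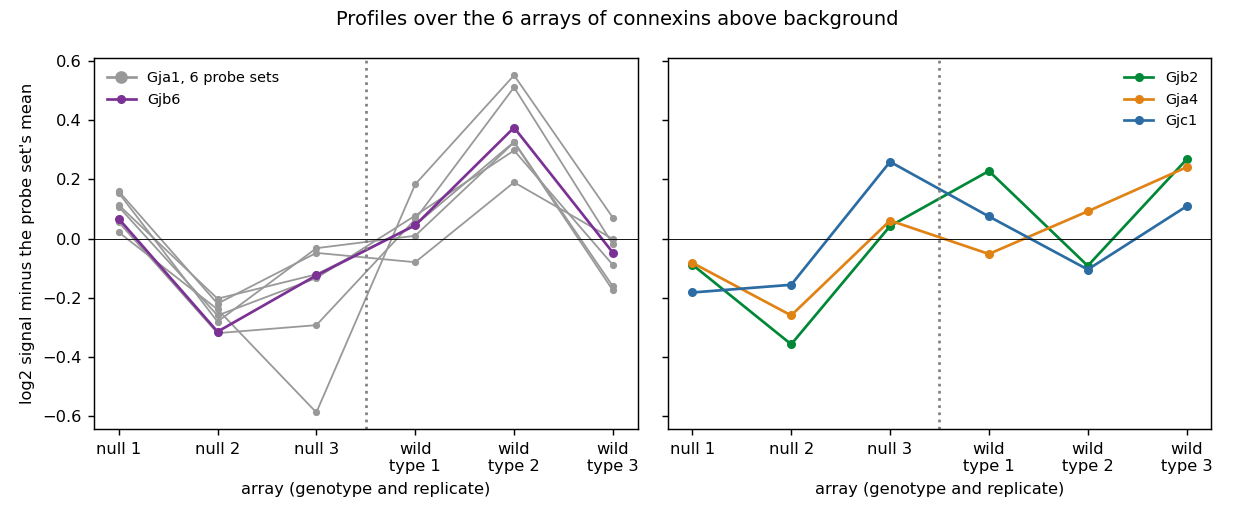
Log2 signal minus each probe set's own mean (y axis) over the 6 arrays (x axis, null left and wild type right of the dotted line). Left, the 6 Gja1 probe sets in grey with Gjb6 in purple, which all peak in wild type replicate 2; right, Gjb2, Gja4 and Gjc1 at their single probe sets, of which none peaks there.

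The remaining channel genes of the family were mostly not above background. Of 15 other connexin and pannexin genes 6 were measured, and Panx1, a pannexin of single-membrane channels, was the 1 above background. Panx1 had signals of 6.56, 6.71 and 6.75 in null replicates 1 to 3 and 6.84, 7.06 and 6.63 in wild type replicates 1 to 3, which overlapped (difference -0.17 ± 0.15 SE, adjusted p = 0.981 in limma). The other 5, Gja3, Gja10, Gjc3, Gjd2 and Gjd4, had means at or under the background in both genotypes. Of this list 3 were higher and 3 lower in null, with 0 past the threshold and a median of -0.07. Leaving out null replicate 3 moved this median to -0.68, leaving out wild type replicate 3 moved it to 0.26, and array weights gave -0.90.

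Genes of gap junction partners, the proteins that anchor, phosphorylate or turn over connexins, were detected at 20 of 21 measured members. Of these 21 genes 7 had a higher and 14 a lower mean in null, with a median of -0.07 and 0 past the threshold, and the median was 0.033 with median centring. Protein kinase C alpha, Prkca, which phosphorylates Cx43, differed by -0.46 ± 0.26 (SE). Prkcd, the delta kinase, differed by -0.19 ± 0.12 and Ctnnb1, which encodes the junction protein beta-catenin, by -0.12 ± 0.10, while Ubqln4, whose product binds Cx43 for degradation, differed by 0.16 ± 0.12. Prkcd, Ctnnb1 and Ubqln4 had separate groups, 3 of 21 genes, against 10.6% of all 12393 genes at their brightest probe set. Adjusted p was at least 0.980 for each in limma.

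Potassium cycling genes, whose products act with the Gjb2 and Gjb6 channels in endolymph formation, were measured for 10 of 17 list members. Of these 2 were higher and 8 lower in null, with a median of -0.10 and 0 past the threshold. The pendrin gene Slc26a4 differed by 0.70 ± 0.35 (SE), the cotransporter gene Slc12a7 by 0.17 ± 0.12, the channel gene Kcnq1 by -0.66 ± 0.52 and the barttin gene Bsnd, not above background, by -0.49 ± 0.29, each with an adjusted p of at least 0.980 in limma. The median was 0.0086 without null replicate 1 and 0.013 with array weights. It was -0.28 without null replicate 2 and -0.22 without wild type replicate 1.

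**Figure D4:**
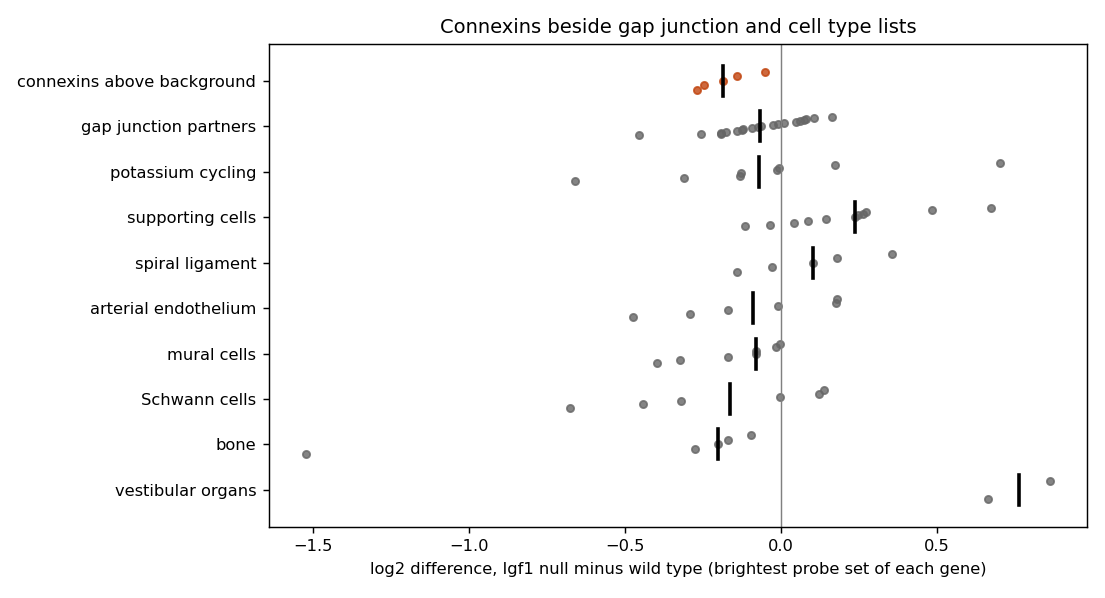
Log2 difference, Igf1 null minus wild type (x axis), of each gene above background at its brightest probe set, by list (y axis); the black bars are medians. The 5 connexins (orange) lie between -0.27 and -0.05, within the range of the gap junction partners, while the supporting cell, spiral ligament and vestibular medians are above 0.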

How the data were processed

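Each pool's biotin-labelled cRNA went onto 1 Affymetrix array, per the labels' protocols. The authors deposited log2 signals for 22690 probe sets. The base of the log was taken from their range, and how probes were summarised or background-corrected is not stated in the labels or the table. Without the 64 control probe sets, arrays were quantile normalized and genotypes compared with limma 3.58.1 (R 4.3.3; linear model with genotype alone, moderated by eBayes, two-sided). P-values of all 22626 probe sets were adjusted together by Benjamini-Hochberg, at a threshold of 0.05. The platform annotation gave 20380 of these 1 gene, 691 several and 1555 none. List genes were read at their single-gene probe set of highest mean. Groups come from the sample titles, and no arrays were identical. Members and lists were chosen with earlier results of these data known. Genes named by rule are all member probe sets, Igf1, up to 4 genes per gap junction list by smallest p, and the 3 genes nearest in profile to Gjb2, Gjb6 and Gja1. Cell type markers named in the text were picked with their values in view. The fit was tested on simulated data. Alternatives covered scaling, blocks, the variance model, array weights (statmod 1.5.0), a 40th percentile filter, a pseudocount of 32, the handling of several probe sets per gene, and left-out arrays. Deviations of same-numbered replicates from their group means correlated at 0.15, 0.29 and 0.065, against -0.20 to 0.090 between differently numbered replicates. Each null replicate correlated highest with its same-numbered wild type replicate. Whether the numbers pair the pools was not settled. The main fit did not pair them, and a replicate block was among the alternatives.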

Additional observations from a re-analysis of the deposited data

How the results depend on the processing

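Under all 17 alternatives 0 connexin probe sets, 0 genes of the other gap junction lists and 0 probe sets of the whole table passed an adjusted p of 0.05 in limma, and among fits of all 22626 probe sets the number at an unadjusted p below 0.05 ran from 828, on the values as deposited, to 1613, with array weights. It was 673 of 13576 with the filter, and 612 and 623 of 12393 genes at their brightest and mean probe set. The median difference of the connexin probe sets was -0.16, and -0.28 on the values as deposited, where the median of all probe sets was -0.15. It ran from -0.26 to -0.09 with single arrays left out. With the replicate block, the pairing of replicate numbers, 0 connexin probe sets passed. The median of -0.16 cannot change there, because each replicate number holds 1 null and 1 wild type array. In limma the unadjusted p went from 0.170 to 0.074 for Gjb2 and from 0.209 to 0.302 for Gjb6. Below background it went from 0.155 to 0.033 for Gjb5 and from 0.042 to 0.095 for Gjb1 1448766_at. Connexin probe sets without overlap numbered 1, against 3 on the values as deposited (6.37% of all probe sets), 6 without the 2 arrays of title number 14 (35.2%), 0 at the brightest probe set of a gene (10.6%) and 2 to 4 with single arrays left out (17.8% to 22.0%). Fewer arrays separate more often by construction. Signs turned, with no call and the cause not tested, as follows. Without null replicate 2, Gja1 1438650_x_at was 0.0086, Gja1 1438973_x_at 0.020 and Gjc1 0.012, and without wild type replicate 2 these Gja1 probe sets were 0.029 and 0.0050. Without null replicate 1 and without title number 14 Gjc1 was 0.025 and 0.049. Below background, Gja5 was -0.43 without null replicate 3, and Gjb1 1448767_s_at was -0.061 as deposited, -0.25 without title number 14, -5.8e-04 with the pseudocount, -0.33 without null replicate 1 and -0.52 without wild type replicate 3. With single arrays left out the other ends of these ranges were -0.22 for Gja1 1438650_x_at, -0.17 for Gja1 1438973_x_at, -0.20 for Gjc1, 0.75 for Gja5 and 0.52 for Gjb1 1448767_s_at. Gja1 1437992_x_at ran from -0.25 to -0.011, Gja1 1415800_at from -0.55 to -0.21, Gja1 1415801_at from -0.74 to -0.29, Gjb2 from -0.39 to -0.16, Gjb6 from -0.41 to -0.12 and Gja4 from -0.36 to -0.10 over the alternatives. Signal near background limits Gja5, Gjb1 and Gjb5, whose standard errors were 0.63 to 1.23.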
